A study of Danio rerio with 12 samples.

Results

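Type I interferons are secreted antiviral cytokines, and zebrafish carry 4 of them, ifnphi1, ifnphi2, ifnphi3 and ifnphi4. Together with crfb1, crfb2 and crfb5, the chains of their receptors, they are 7 genes, which were looked up by gene name in the deposited tables. Of the 7 names, 5 had a row among 32349 genes: the 4 ligands and the receptor chain crfb2. The chains crfb1 and crfb5 had no row under these names and were not analysed here.

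The measurements were RNA-seq read counts from pools of 25 whole zebrafish larvae at 3 days post fertilization (dpf). The 4 groups of 3 libraries each were Tg(ifih1_mut) larvae stimulated with poly I:C (libraries A72, A73 and A74), Tg(ifih1_mut) larvae without stimulation (A75, A76 and A77), control larvae stimulated with poly I:C (A78, A79 and A80) and control larvae without stimulation (A81, A82 and A83). Poly I:C is a synthetic double-stranded RNA. The transgene is named after a mutant ifih1, the gene of the double-stranded RNA sensor MDA5. The sources used here give neither its allele, promoter or copy number nor the strain, and nothing on how poly I:C was applied, at which dose or for how long.

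In larvae, a cell that senses viral or double-stranded RNA switches on interferon genes, and the secreted protein acts on neighbouring cells through a receptor made of a ligand-specific chain and the shared chain Crfb5. Group I ligands, ifnphi1 and ifnphi4, pair with Crfb1, and Group II ligands, ifnphi2 and ifnphi3, pair with Crfb2. The receptor signals through the kinases Jak1 and Tyk2 and transcription factors such as Stat2 and Irf9 to interferon-stimulated genes such as isg15. Infected larvae are known for inducing mainly ifnphi1 and ifnphi3.

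Library totals ran from 31876869 to 100839015 counts. Levels are in CPM, counts per 1000000 counts of the library's TMM-adjusted total. The smallest level read as detected was 3 counts in a library, which was 0.0287 CPM in the deepest library (A81) and 0.0945 CPM in the shallowest (A83). These limits, and the Poisson intervals below, cover counting error only. Libraries were also grouped into 3 sets by the place of the library number in its group, so that set 1 holds A72, A75, A78 and A81, set 2 holds A73, A76, A79 and A82, and set 3 holds A74, A77, A80 and A83. The labels do not say what the sets are. All 12 markers of whole-larva tissues were found and none was at 0 in a group, with their summed level at 4008 to 6498, 3664 to 5956, 3766 to 5166 and 3537 to 5319 CPM in the groups as listed above. Of these, the muscle markers mylpfa and ckma, the keratin gene krt4 and the globin gene hbbe1.1 were chosen after their values were seen. The level of mylpfa was low, at 0.052 to 0.42 CPM over the libraries, while ckma was at 571.5 to 948.4 CPM. The sums were largely krt4, hbbe1.1 and ckma, at means of 2245, 918.1 and 764.5 CPM, and say little of the other markers. Over the libraries hbbe1.1 ran from 59.8 to 2142 CPM, so the pools were not alike in it.

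The transgene's label was checked with ifih1. Its level was 17.5, 25.3 and 33.3 CPM in stimulated Tg(ifih1_mut) pools and 11.1, 14.0 and 17.1 CPM in unstimulated ones. It was 2.26, 1.92 and 2.02 CPM in stimulated control pools and 2.29, 2.73 and 1.99 CPM in unstimulated ones. Every Tg(ifih1_mut) pool was above every control pool. The counts of ifih1 may hold reads of both the transgene and the native gene.

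The interferon transcripts were rare. The 4 ligands together held 274 of 568304683 counts over the 12 libraries, or 0.482 CPM of the unadjusted totals, and ifnphi1 and ifnphi3 gave 59.9% and 32.1% of them. Per library the ligand total was 30, 11 and 49 counts in stimulated Tg(ifih1_mut) pools, 10, 32 and 25 in unstimulated Tg(ifih1_mut) pools, 9, 19 and 24 in stimulated control pools and 37, 16 and 12 in unstimulated control pools. The detection limit of 3 counts was reached by ifnphi1 and by ifnphi3 in 11 of 12 libraries each. It was reached by ifnphi2 in 2, by ifnphi4 in 1 and by crfb2 in 0 of 12 libraries. In whole larvae, fewer cells of a type and less RNA per cell cannot be told apart.

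**Figure D1:**
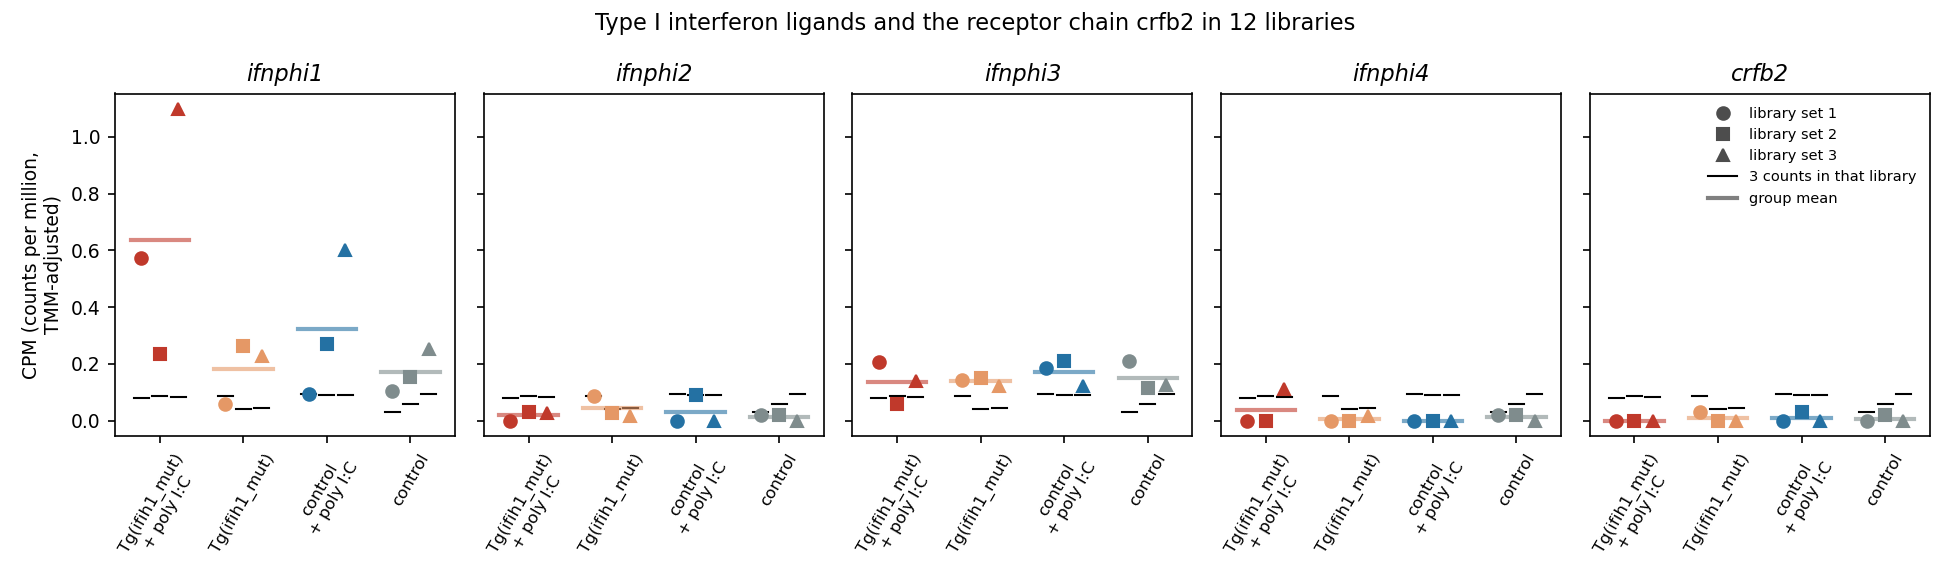
Level of the 4 interferon ligands and of crfb2 in CPM (vertical axis, linear) in each of the 12 libraries, by group; coloured bars are group means, black ticks mark 3 counts in that library and shapes mark library sets. In ifnphi1, A74 is at 1.098, A80 at 0.602 and A72 at 0.572 CPM, while ifnphi3 reaches at most 0.21 CPM.

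Per kilobase of deposited gene length, the mean level over the 12 libraries was 0.398 CPM for ifnphi1 (823 bases), 0.117 for ifnphi3 (1275 bases), 0.0439 for ifnphi2 (598 bases), 0.025 for ifnphi4 (553 bases) and 0.00224 for crfb2 (2899 bases). The order of neighbours was not fixed in single libraries. The level of ifnphi1 per kilobase was above that of ifnphi3 in 9 of 12 libraries, and the other 3 were A75, A78 and A81, all of set 1.

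The Group I ligand ifnphi1 (ENSDARG00000025607, chromosome 3, 22362687 to 22366562, minus strand) had 164 counts in all. It had 22, 8 and 39 counts in stimulated Tg(ifih1_mut) pools (A72, A73 and A74) and 2, 19 and 15 in unstimulated Tg(ifih1_mut) pools (A75, A76 and A77). It had 3, 9 and 20 counts in stimulated control pools (A78, A79 and A80) and 11, 8 and 8 in unstimulated control pools (A81, A82 and A83). The deepest library, A81, thus held fewer ifnphi1 counts than A72, A74 or A80, whose totals were 36743869, 37361779 and 33192488 counts against its 100839015. It also held fewer than the unstimulated libraries A76 and A77, whose totals were 75753738 and 65922758 counts.

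In CPM, ifnphi1 was at 0.572, 0.235 and 1.098 in stimulated Tg(ifih1_mut) pools, against 0.0575, 0.262 and 0.229 in unstimulated Tg(ifih1_mut) pools. In control larvae it was at 0.0927, 0.27 and 0.602 CPM with poly I:C, against 0.105, 0.153 and 0.252 CPM without. The highest 3 libraries were A74, A80 and A72, all stimulated, and the stimulated library A73 lay below A79, A76 and A83. Group means were 0.635 ± 0.435 CPM in stimulated Tg(ifih1_mut) pools, 0.183 ± 0.11 in unstimulated Tg(ifih1_mut) pools, 0.322 ± 0.259 in stimulated control pools and 0.17 ± 0.075 in unstimulated control pools (SD, n = 3 each).

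The order of the group means was stimulated Tg(ifih1_mut), stimulated control, unstimulated Tg(ifih1_mut), unstimulated control. Each neighbouring pair in this order overlapped in its libraries. With the counts of a group pooled, the level was 0.639 CPM (exact Poisson 95% interval 0.497 to 0.809) in stimulated Tg(ifih1_mut) larvae and 0.208 (0.146 to 0.288) in unstimulated ones. It was 0.324 CPM (0.221 to 0.457) in stimulated control larvae and 0.143 (0.0943 to 0.208) in unstimulated ones. In both stimulated groups single libraries lay on either side of their group's interval.

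The first comparison asked whether the transgene changes these genes under poly I:C. In edgeR's quasi-likelihood test over 26508 genes, ifnphi1 was the 1 member with enough counts to be tested, and the other 4 were not tested there. Its log2 fold change in stimulated Tg(ifih1_mut) over stimulated control pools was 0.97 (SE 0.72, edgeR adjusted p = 1), a 1.97-fold difference that did not pass. Of the members 0 were called, where 0.6% of all tested genes were (159 of 26508, 992 at an unadjusted p under 0.05, and 277 in DESeq2, which also called 0 members). The estimate depended on single libraries, being 0.33 without A74, 0.54 without A78 and 1.79 without A80. An exact two-sided permutation test of the CPM gave p = 0.5, where 3 pools against 3 cannot go below 0.1.

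The second comparison asked what poly I:C does in Tg(ifih1_mut) larvae. Here ifnphi1 had its largest estimate of the 4 pairwise comparisons, with a log2 fold change of 1.72 (SE 0.72, 3.28-fold) and an unadjusted p = 0.037 in edgeR. It did not pass (edgeR adjusted p = 1), and 0 members were called against 0.69% of all tested genes (183, with 966 at an unadjusted p under 0.05, and 307 in DESeq2). The exact permutation test gave p = 0.2. The log2 fold change was 1.07 without A74, and the groups overlapped because A73 (0.235 CPM) lay below A76 (0.262 CPM).

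In control larvae poly I:C gave an ifnphi1 log2 fold change of 0.99 (SE 0.77, edgeR adjusted p = 1; 0.18 without A80; exact permutation p = 0.5). Here 0 genes were called by edgeR (0.0%, with 367 genes at an unadjusted p under 0.05) and 0 by DESeq2. For Tg(ifih1_mut) over control without stimulation the log2 fold change was 0.25 (SE 0.76, edgeR adjusted p = 1; exact permutation p = 0.9), and it was -0.07 without A76 and -0.05 without A81. There 0 members were called against 0.00377% of all genes, which is 1 gene, ifih1 (135 at an unadjusted p under 0.05, 2 calls in DESeq2). The poly I:C effect on ifnphi1 in Tg(ifih1_mut) minus that in control larvae was 0.72 in log2 (SE 1.06, edgeR adjusted p = 1), with 0 members called against 0.155% of genes (41, with 542 at an unadjusted p under 0.05 and 138 in DESeq2). That difference was 0.08 without A74 and 1.54 without A80.

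Library sets moved with these values. In set 1 the stimulated Tg(ifih1_mut) library A72 was at 0.572 CPM of ifnphi1 and the other 3 libraries were at 0.0575 to 0.105. In set 2, A73 was at 0.235 CPM, inside the range of the other 3 (0.153 to 0.27). In set 3, A74 was at 1.098 CPM and the others at 0.229 to 0.602.

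Set 3 thus held the highest ifnphi1 value of every group except unstimulated Tg(ifih1_mut), where set 2 did. Within the sets, stimulated Tg(ifih1_mut) minus stimulated control was 0.86, -0.07 and 0.54 on the log2(CPM + 0.5) scale in sets 1, 2 and 3. Stimulated minus unstimulated Tg(ifih1_mut) was 0.94, -0.05 and 1.13, and stimulated minus unstimulated control was -0.03, 0.24 and 0.55. Without stimulation, Tg(ifih1_mut) minus control was -0.12, 0.22 and -0.04. The direction was the same in all 3 sets in none of these comparisons. With the sets as a block in edgeR, the log2 fold change was 1.06 (SE 0.54, adjusted p = 0.83) between the stimulated genotypes and 1.69 (SE 0.55, adjusted p = 0.36) for poly I:C in Tg(ifih1_mut) larvae, and neither passed.

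The other Group I ligand, ifnphi4 (ENSDARG00000100678, chromosome 12, 4911907 to 4916969, minus strand), had 8 counts in all. It had 0, 0 and 4 counts in stimulated Tg(ifih1_mut) pools, 0, 0 and 1 in unstimulated Tg(ifih1_mut) pools, 0, 0 and 0 in stimulated control pools and 2, 1 and 0 in unstimulated control pools. Of its 8 counts, 4 came from A74, the 1 library above the detection limit and also the library highest in ifnphi1. The 0 counts of the stimulated control pools lie under the limit of 3 counts over the group, 0.0303 CPM (exact Poisson 95% upper bound 0.0373 CPM). How large a difference between groups these counts could show was not tested.

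The Group II ligand ifnphi3 (ENSDARG00000070676, chromosome 3, 22334012 to 22380787, plus strand) was the second in abundance, with 88 counts. It had 8, 2 and 5 counts in stimulated Tg(ifih1_mut) pools, 5, 11 and 8 in unstimulated Tg(ifih1_mut) pools, 6, 7 and 4 in stimulated control pools and 22, 6 and 4 in unstimulated control pools. The 22 counts of A81 stand beside the largest library total and come to 0.21 CPM, the same level as in A79.

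In CPM the means of ifnphi3 were 0.136 ± 0.0749 in stimulated Tg(ifih1_mut) pools, 0.139 ± 0.0151 in unstimulated Tg(ifih1_mut) pools, 0.172 ± 0.0463 in stimulated control pools and 0.15 ± 0.0522 in unstimulated control pools (SD, n = 3 each). All groups overlapped, the stimulated Tg(ifih1_mut) group held both the lowest library (A73, 0.0587 CPM) and a library at 0.208 CPM (A72), and the exact permutation p-values of the 4 pairwise comparisons were 0.6, 0.9, 0.8 and 0.9. Where ifnphi1 was highest, in A74, ifnphi3 was at 0.141 CPM. Per kilobase, ifnphi1 was at 0.772 CPM and ifnphi3 at 0.107 CPM in stimulated Tg(ifih1_mut) pools, while in unstimulated control pools the levels were 0.207 and 0.118 CPM.

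The Group II ligand ifnphi2 (ENSDARG00000069012, chromosome 3, 22341043 to 22359119, minus strand) had 14 counts in all. It had 0, 1 and 1 counts in stimulated Tg(ifih1_mut) pools, 3, 2 and 1 in unstimulated Tg(ifih1_mut) pools, 0, 3 and 0 in stimulated control pools and 2, 1 and 0 in unstimulated control pools. No library held more than 3 counts, and A75 and A79 were the 2 that reached the limit. Its group levels of 0.0192, 0.043, 0.03 and 0.0127 CPM in the same order rest on 2, 6, 3 and 3 counts. How large a difference such counts could show was not tested.

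The receptor chain crfb2 (ENSDARG00000040332, chromosome 9, 19073556 to 19092322, minus strand), which with Crfb5 binds the Group II ligands, had 3 counts in all. A75, A79 and A82 held 1 count each, and the other 9 libraries held 0. The 0 counts of the stimulated Tg(ifih1_mut) pools lie under the limit of 3 counts over the group, 0.0278 CPM (exact Poisson 95% upper bound 0.0342 CPM), and the 1 count of each other group is below the limit too. Its absence from a table of 6 libraries was read as 0 counts there, apart from the 1 count of A79 that another table gives.

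The 3 ligand genes of chromosome 3 overlap in the deposited annotation, and its build is not given. The listed span of ifnphi3, 46776 bases, contains the whole of ifnphi1 (3876 bases) and of ifnphi2 (18077 bases) on the opposite strand. It also contains the gene zgc:103564 on its own strand (6077 bases) and shares 5192 bases with arhgap27l, again on its own strand. These 2 neighbours had 1265 and 16600 counts against 88 for ifnphi3. How the counting treated strand and reads on overlapping genes is not given, so reads of ifnphi3 and of the genes within its span cannot be told apart from the counts alone, and the values of ifnphi1, ifnphi2 and ifnphi3 are uncertain to that extent. The spans say nothing of which exons overlap.

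**Figure D2:**
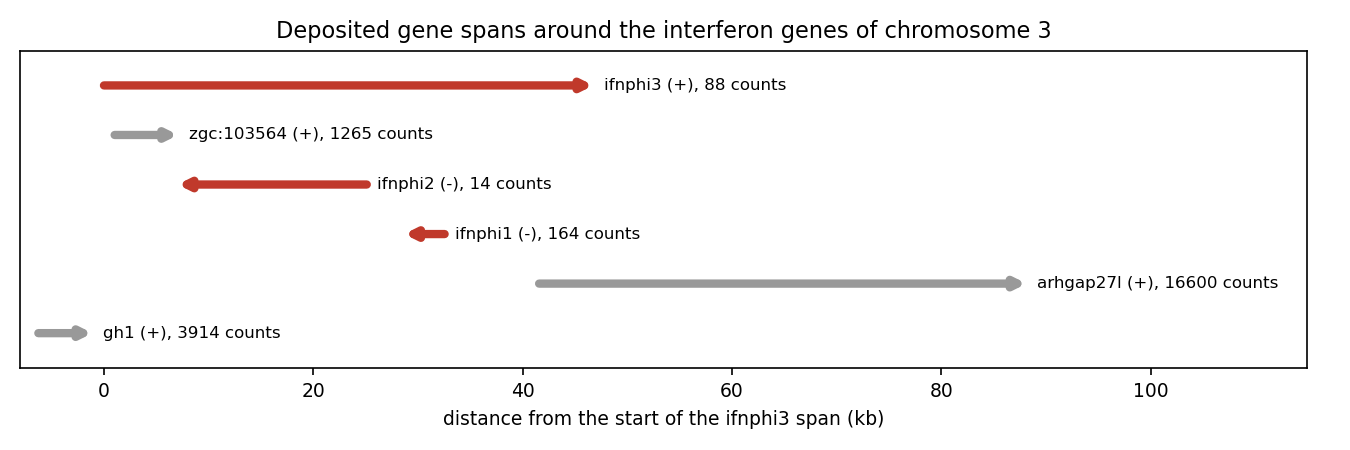
Deposited spans and strands of the interferon genes of chromosome 3 (red) and their neighbours (grey), against distance from the start of the ifnphi3 span in kilobases, with counts summed over 12 libraries. The span of ifnphi3 covers ifnphi1 and ifnphi2 entirely, and the neighbours arhgap27l and zgc:103564 hold 16600 and 1265 counts.

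Over the 5 members and the 4 pairwise comparisons, 20 exact two-sided permutation tests of CPM gave a lowest p of 0.2. Without tied values 0.1 is the smallest possible. Libraries tied at 0 kept the tests of crfb2 and some of ifnphi4 from reaching even 0.1. As no test of 3 pools against 3 goes below 0.1, none of the 20 could pass the threshold set for edgeR's adjusted p. The lowest p of 0.2 is therefore not read as evidence against a difference in any member, ifnphi1 and ifnphi3 included. The groups overlapped in all 20, and the share of all genes with overlapping groups was not computed. The authors' deposited tables list the members in 14 comparisons, with a lowest p-value of 0.26 and an adjusted p of 1 in each. For ifnphi1 the authors' deposited table gives a log2 fold change of 0.98 (p = 0.26) between the stimulated genotypes. The authors' deposited tables give 0.97 (p = 0.28) for poly I:C in control larvae and 0.2 (p = 0.81) between the unstimulated genotypes.

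Interferon responses are read from genes such as isg15, whose levels stand beside the ligand's here. The ubiquitin-like modifier isg15 was at 154.9, 121.4 and 277.2 CPM in stimulated Tg(ifih1_mut) pools, against 0.834, 0.675 and 1.73 CPM in unstimulated Tg(ifih1_mut) pools. It was at 1.11, 3.3 and 3.28 CPM in stimulated control pools, against 0.611, 0.707 and 2.39 CPM in unstimulated control pools. The stimulated Tg(ifih1_mut) pools were thus separate from all others in isg15 and not in ifnphi1. The library A73, at 121.4 CPM of isg15, had 0.235 CPM of ifnphi1, and A80, at 3.28 CPM of isg15, had 0.602 CPM of ifnphi1. These ifnphi1 levels rest on 8 counts in A73 and 20 in A80. Whether counting error covers this contrast with isg15 was not tested. Within the stimulated Tg(ifih1_mut) pools, A74 was the highest and A73 the lowest for both genes.

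**Figure D3:**
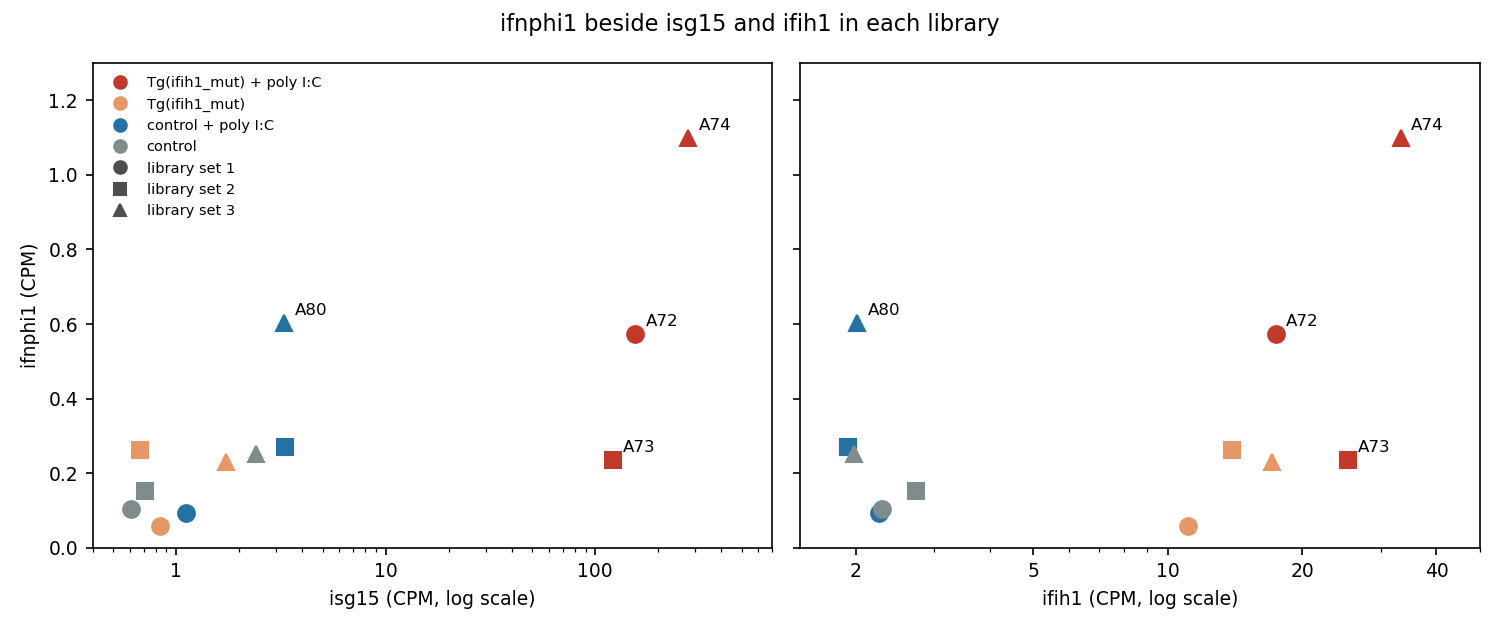
Level of ifnphi1 in CPM (vertical axis, linear) against isg15 (left) and ifih1 (right) in CPM on log axes, 1 point per library, coloured by group and shaped by library set. The 3 stimulated Tg(ifih1_mut) libraries lie at 121.4 to 277.2 CPM of isg15 and spread from 0.235 to 1.098 CPM of ifnphi1, and A80 reaches 0.602 CPM of ifnphi1 at 3.28 CPM of isg15.

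Likeness was searched over 15113 of the 26508 tested genes, leaving out low-level genes and those with no symbol or a clone-type name. Over these genes and 12 libraries, the genes whose levels followed ifnphi1 most closely were the cathepsin gene ctss2.1 (Pearson r = 0.937, Spearman rho 0.741), eif2ak2, which encodes the double-stranded RNA kinase PKR (0.896 and 0.832), and the helicase gene setx (0.871 and 0.503). By rank correlation these were 34th, 5th and 821st, so the order depends on the measure. Of ctss2.1, A74 held 20.1 CPM, against 4.07 to 9.32 CPM in the other 11 libraries. The level of eif2ak2 was 5.20, 4.99 and 10.8 CPM in stimulated Tg(ifih1_mut) pools, 2.21, 4.26 and 4.01 in unstimulated Tg(ifih1_mut) pools, 2.54, 2.76 and 5.24 in stimulated control pools and 2.62, 4.21 and 3.21 in unstimulated control pools. Here too A74 was the highest, and A80, A72 and A73 came next.

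Neither gene passed between the stimulated genotypes (log2 0.96, SE 0.39 for ctss2.1 and 0.99, SE 0.39 for eif2ak2, edgeR adjusted p = 1 each). For ifnphi3 the closest genes were brf1b (Pearson r = 0.861, Spearman rho 0.867), kcnj19a (0.85 and 0.727) and efs (0.837 and 0.72). The libraries share group, depth and set, and these correlations are descriptions of 12 points. They are the highest of a search over 15113 genes, and how high r would go there without any tie was not tested. The ifnphi3 values rest on 2 to 22 counts per library. With 3 counts, crfb2 allowed no such list.

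Most other receptor chains of the class II family had many more counts than crfb2. Of 22 names of the family looked for, 15 had a row and 11 were tested, and those named here were chosen after their values were seen. Per kilobase, crfb6 and crfb17, which belong to the type II interferon receptors, were at a mean of 16.5 and 4.42 CPM over the 12 libraries, and the interleukin-10 receptor chain il10rb at 15.4, against 0.00224 for crfb2. The level of crfb6 kept between 38.3 and 48.4 CPM in all 12 libraries and that of il10rb between 20.9 and 34.5 CPM. Of the 11, 0 were called in each of the 5 edgeR comparisons (at most 1 at an unadjusted p under 0.05) and 0 in DESeq2, and their median log2 fold change was 0.14 between the stimulated genotypes and 0.13 for poly I:C in Tg(ifih1_mut) larvae, beside 0.0 and -0.01 over all genes. The ligands il10, il22 and il26 of the family, with 44, 29 and 15 counts, were also rare and were not tested, and neither was the decoy receptor gene il22ra2, with 3 counts.

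Downstream of the receptor, 16 signalling genes are reported and 15 were tested. Of the 15, 1 rose in stimulated Tg(ifih1_mut) pools over stimulated control pools and over unstimulated Tg(ifih1_mut) pools: usp18, which encodes an ISG15 protease that also restrains the receptor. Over all tested genes 0.589% and 0.683% were higher in these 2 comparisons. In each of these 2 comparisons 5 of the 15 had an unadjusted p under 0.05, and DESeq2 called 2 (usp18 and socs1a) over stimulated control pools and 4 (usp18, socs1a, stat2 and irf9) over unstimulated Tg(ifih1_mut) pools. In the other comparisons 0 of the 15 passed in edgeR. For the difference of poly I:C effects 4 had an unadjusted p under 0.05 and DESeq2 called usp18. For poly I:C in control larvae and between unstimulated genotypes 0 had an unadjusted p under 0.05 and DESeq2 called 0. The medians of the list were 0.29 and 0.24 in the comparisons where usp18 rose, 0.04 for poly I:C in control larvae, -0.05 between unstimulated genotypes and 0.36 for the difference of poly I:C effects, beside medians of 0.0 or -0.01 over all genes.

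The negative regulator usp18 was at 4.22, 2.55 and 7.55 CPM in stimulated Tg(ifih1_mut) pools, against 0.719, 0.523 and 0.443 CPM in unstimulated Tg(ifih1_mut) pools. It was at 0.587, 0.51 and 0.633 CPM in stimulated control pools, against 0.716, 0.573 and 0.41 CPM in unstimulated control pools. The stimulated Tg(ifih1_mut) pools were separate from the other 9, and the other groups overlapped one another. The log2 fold change was 3.04 (SE 0.4, edgeR adjusted p = 0.0042) over stimulated control pools and 3.10 (SE 0.4, adjusted p = 0.003) over unstimulated Tg(ifih1_mut) pools, and the first was not called when only the groups compared were fitted (adjusted p = 0.059).

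The other signalling genes were chosen for naming after their values were seen. The kinase gene jak1 was at 7.09 ± 0.932 CPM in stimulated Tg(ifih1_mut) pools, 7.08 ± 1.05 in unstimulated Tg(ifih1_mut) pools, 6.85 ± 1.19 in stimulated control pools and 6.62 ± 0.279 in unstimulated control pools (SD, n = 3 each), with log2 fold changes of 0.05 (SE 0.17) over stimulated control and 0.0 (SE 0.16) over unstimulated Tg(ifih1_mut) pools. For the kinase gene tyk2 the same fold changes were 0.29 (SE 0.12) and 0.40 (SE 0.12, edgeR adjusted p = 0.48). The factors stat2 (3.98, SE 0.91, edgeR adjusted p = 0.12) and irf9 (1.06, SE 0.22, edgeR adjusted p = 0.066) did not pass over unstimulated Tg(ifih1_mut) pools. DESeq2 called both there (adjusted p = 0.00047 and 0.00063), as did edgeR with the set block (0.049 and 0.02). The inhibitor socs1a, at 8.34 ± 4.42 CPM in stimulated Tg(ifih1_mut) pools and 2.31 ± 0.761 in stimulated control pools (SD, n = 3 each), had a log2 fold change of 1.85 (SE 0.4) that did not pass in edgeR (adjusted p = 0.096) and did in DESeq2 (0.00056) and with the set block (0.002). Over unstimulated Tg(ifih1_mut) pools it was 1.38 (SE 0.39, edgeR adjusted p = 0.35), called in DESeq2 (0.041) and with the set block (0.0091).

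Upstream of the ligands, 14 of 20 names of interferon induction genes had a row. They came to 16 genes, as irf1b and tlr7 had more than 1 row each. Of these 15 were tested, and they include ifih1 itself. Between the stimulated genotypes 4 rose: ifih1, the RNA helicase gene dhx58 and the transcription factor genes irf7 and irf3, which act on interferon promoters. For poly I:C in Tg(ifih1_mut) larvae 3 rose (dhx58, irf7 and irf3). For poly I:C in control larvae 0 rose (1 at an unadjusted p under 0.05), and between the unstimulated genotypes ifih1 alone. Of all tested genes 0.589%, 0.683%, 0.0% and 0.00377% were higher in these comparisons, in that order. DESeq2 called 5, 4, 0 and 1 of the list in the same order, with tmem173 (the sensing adaptor STING) as the added gene in the first pair of comparisons. The call of ifih1 between the unstimulated genotypes was lost without A76, A81, A82 or A83 and with only the groups compared (adjusted p = 0.16). The list's medians were 0.22, 0.1, -0.09 and 0.02 in that order, and 0.24 for the difference of poly I:C effects, where dhx58 and irf7 were called.

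The level of irf3 was 10.4, 7.02 and 21.5 CPM in stimulated Tg(ifih1_mut) pools, 1.06, 2.66 and 1.53 in unstimulated Tg(ifih1_mut) pools, 1.51, 1.02 and 2.56 in stimulated control pools and 1.22, 1.93 and 1.51 in unstimulated control pools. The stimulated Tg(ifih1_mut) pools were separate from the rest, with A74 highest and A73 lowest, as for ifnphi1. The log2 fold change of irf3 over stimulated control pools was 2.93 (SE 0.49, edgeR adjusted p = 0.021), lost without A74, A78 or A79 and with only the groups compared (adjusted p = 0.11). Over unstimulated Tg(ifih1_mut) pools it was 2.87 (SE 0.48, edgeR adjusted p = 0.02), lost without A74, A75 or A77 and with only the groups compared (adjusted p = 0.096). That of irf7 was 3.04 (SE 0.33, edgeR adjusted p = 0.0014), with levels of 31.4, 24.7 and 68.6 CPM in stimulated Tg(ifih1_mut) pools and 4.14, 5.82 and 5.18 CPM in stimulated control pools. The kinase gene tbk1 and the adaptor gene mavs, which link the sensor to these factors and were chosen after their values were seen, were at 83.7 ± 27 and 25.8 ± 1.95 CPM in stimulated Tg(ifih1_mut) pools and at 55.3 ± 3.26 and 26 ± 3.37 CPM in stimulated control pools (SD, n = 3 each), and neither passed.

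**Figure D4:**
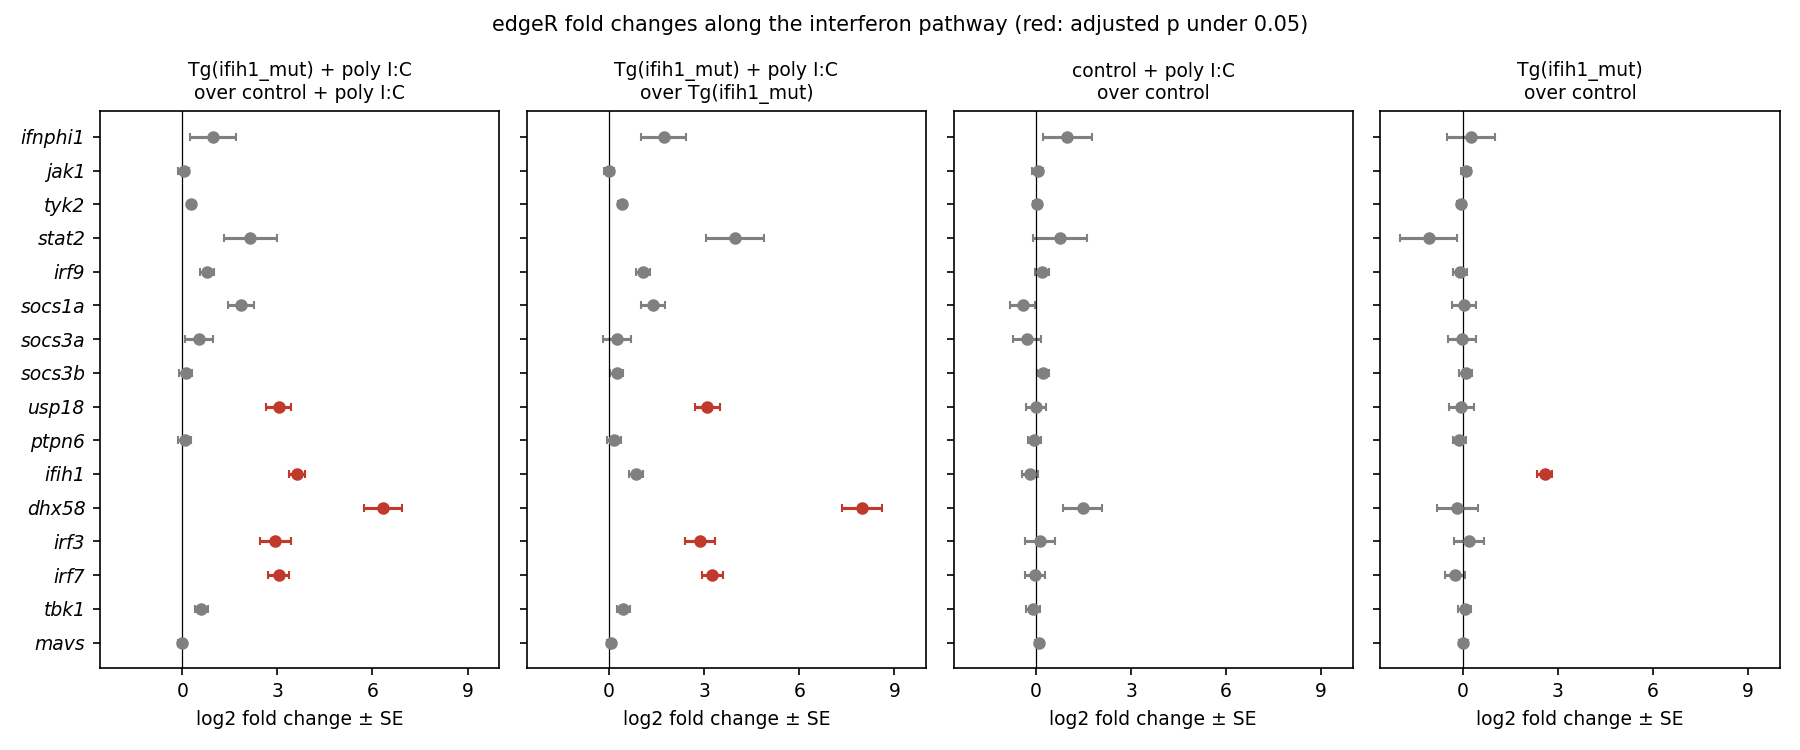
Fold changes in edgeR (log2, horizontal axis, with bars of ± 1 SE) of ifnphi1 and of the genes named on the vertical axis, from the signalling and induction lists, in the 4 pairwise comparisons; red points have an adjusted p under 0.05. Red points are usp18, dhx58, irf3 and irf7 in both comparisons that hold stimulated Tg(ifih1_mut) pools and ifih1 in both comparisons of Tg(ifih1_mut) with control, and ifnphi1 (0.97 and 1.72 there) is grey in every panel.

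A list of interferon-stimulated genes had 20 tested genes. It was chosen with earlier results of these data known, and its calls may reflect that choice. In edgeR 16 rose between the stimulated genotypes and 16 for poly I:C in Tg(ifih1_mut) larvae, with medians of 5.45 and 5.52 on the log2 scale. Of all tested genes 0.589% and 0.683% were higher in these comparisons. In control larvae with poly I:C the list had 0 calls in edgeR and in DESeq2, 2 genes at an unadjusted p under 0.05 and a median of 0.01. That median hid a spread, with 10 of the 20 estimates above 0. They ran from -4.02 (SE 1.81) for ifit15, with 77 counts in all, to 2.09 (SE 0.79) for cmpk2, both chosen after their values were seen. The 2 genes were cmpk2 and helz2 (1.19, SE 0.46), and isg15 was at 1.21 (SE 0.61). Between the unstimulated genotypes the list had 0 calls by either tool, 0 genes at an unadjusted p under 0.05 and a median of -0.06. The ifnphi1 estimates of 0.97, 1.72, 0.99 and 0.25 stand beside these.

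Markers of blood cells were measured beside the interferons. Of 8 macrophage markers found, 5 were tested and 0 called by edgeR in each comparison (at most 2 at an unadjusted p under 0.05), with median log2 fold changes of 0.66 between the stimulated genotypes and 0.78 for poly I:C in Tg(ifih1_mut) larvae. Their summed level was 36.5 to 43.1 CPM in stimulated Tg(ifih1_mut) pools, 23.9 to 33.2 in unstimulated Tg(ifih1_mut) pools, 24.8 to 36.5 in stimulated control pools and 23.9 to 30.6 in unstimulated control pools, and 0 of the 8 were at 0 in any group. The scavenger receptor gene marco, chosen after its values were seen, was at 11.6 ± 4.17 CPM in stimulated and 3.47 ± 1.29 CPM in unstimulated Tg(ifih1_mut) pools (SD, n = 3 each), and DESeq2 called this 1 marker there. The macrophage sums were largely csf1ra, also chosen after its values were seen, at a mean of 21.4 CPM. Its log2 fold change was 0.11 (SE 0.16) between the stimulated genotypes and 0.07 (SE 0.16) for poly I:C in Tg(ifih1_mut) larvae. The list used for neutrophils had 6 names, 7 genes because mmp13a had more than 1 row. Its genes summed to 134.5 to 195.2, 154.5 to 229.2, 158.4 to 186.0 and 172.6 to 200.9 CPM in the same order. They had 0 calls in edgeR and DESeq2 and at most 1 gene at an unadjusted p under 0.05. These sums were largely cpa5, at a mean of 102.4 CPM against 24.7 for mpx and 19.9 for npsn, chosen after their values were seen. For poly I:C in Tg(ifih1_mut) larvae cpa5 had a log2 fold change of -0.48, while 6 of the 7 were positive. The tie of cpa5 to neutrophils was not tested, and the sums of this list are not read as a level of neutrophils. The 4 general leukocyte markers found summed to 28.5 to 34.5, 21.8 to 26.1, 22 to 33.2 and 23.8 to 27.5 CPM. The part of these cells in the levels of ifnphi1 was not tested.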

How the data were processed

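The authors deposited 3 tables, each of 6 libraries, which per the file headers hold for each gene a raw count per library, a log2 fold change with its p-value and adjusted p-value, and a gene length in bases. The sources used here do not give the aligner, the counter, the build, the strandedness or how the authors tested. The 36 deposited columns of normalized values were not used. The tables were joined by gene identifier (32349 genes; 187002 counts stood in several tables and 0 of them differed). No listed row totalled under 2 counts, and 6372 missing values in 1484 genes were set to 0. A row left out of a table may have held a count under 2 that was not 0. Names and coordinates are those of the tables, and reference names covered 25043 identifiers.

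Counts were filtered with filterByExpr (26508 genes), scaled by TMM and tested with edgeR 4.0.16 in R 4.3.3 (quasi-likelihood F-test, 1 coefficient per group, all 12 libraries, Benjamini-Hochberg adjusted p under 0.05 over all genes). The fit was tested on simulated data with changes only in genes at higher levels than ifnphi1. That does not show whether a change in a member could be found. The SE beside an edgeR log2 fold change is its absolute value divided by the square root of the F statistic. It is not a fitted standard error. Single values were also compared by exact permutation of pools. Alternatives were RLE size factors, DESeq2 1.42.0, other filters, only the groups compared, a block for library sets, thinning and leaving out each library. Groups come from the titles. The columns name group and library number, not the replicate number, and Tg(ifih1_mut) titles without poly I:C are numbered 3 to 5. Whether pools are separate clutches is not labelled, and p-values then cover the spread between these pools only.

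The members and gene lists were chosen with earlier results of these data known. Named were all members, ifih1, isg15 and, by adjusted p, up to 3 called genes of each list in each comparison. The rule also took the 3 genes closest by Pearson r to each ligand with at least 50 counts. Genes outside this rule are marked where they were chosen by their values. Also named outside it are genes called only in DESeq2, neighbours on chromosome 3 and genes that explain how a list was counted. Some genes of the signalling list are not reported here, and its counts and medians are without them.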

Additional observations from a re-analysis of the deposited data

Results flagged for a closer look

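The poly I:C effect differed between the genotypes for 6 of the genes named by the rule above, and each was larger in Tg(ifih1_mut) than in control larvae. This was the edgeR test of the difference itself over 26508 genes, of which 0.155% were called, all 41 in this direction. The naming rule drew on calls in this and the other comparisons, from lists chosen with earlier results known. The count of 6 and their shared direction therefore follow largely from that choice. The list of interferon-stimulated genes had 7 calls there, and the naming rule left out mxb, ifit10 and lgals3bpb. On the log2 scale the difference was 5.24 for the helicase gene helz2 (SE 0.63, edgeR adjusted p = 0.019) and 5.72 for the apoptosis regulator xaf1 (SE 0.68, edgeR adjusted p = 0.019). It was 6.51 for dhx58 (SE 0.85, edgeR adjusted p = 0.024). It was 6.47 for the antiviral GTPase mxa (SE 0.87), 3.29 for irf7 (SE 0.44) and 6.18 for isg15 (SE 0.85), with an edgeR adjusted p of 0.025 each. Each of these 6 calls was lost in 7 to 9 of the 12 fits that left out 1 library. None is an interferon or a receptor chain, and the same difference for ifnphi1 was 0.72 (SE 1.06, edgeR adjusted p = 1).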

How the results depend on the processing

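No member was called in any of 89 comparisons from alternative fits. Of these, the 5 with a CPM of 1 in 3 libraries had no member to test, and with only the groups compared ifnphi1 was tested in 2 of 4. The 4 members not tested in the main fit had failed its filter, which most of the other edgeR fits also used. Those members entered the fit without a filter and DESeq2. The 89 are thus mostly repeated fits of ifnphi1 on the same libraries, not separate tests of every member. No paired analysis was possible because the columns carry no replicate number. The library sets rest only on the order of library numbers, so a block on them does not replace a pairing. The ifnphi1 log2 fold change, with 1 library left out, ran from 0.33 to 1.79 between stimulated genotypes, 1.07 to 2.11 for poly I:C in Tg(ifih1_mut) larvae, 0.18 to 1.43 in control larvae, -0.07 to 0.6 between unstimulated genotypes (-0.07 without A76 and -0.05 without A81, reversed) and 0.08 to 1.54 for the difference. The near-zero jak1 values turned to -0.06 without A73 and -0.06 without A79 over stimulated control (range -0.06 to 0.19), and to -0.11, -0.04 and -0.06 without A73, A76 and A77 over unstimulated Tg(ifih1_mut) (range -0.11 to 0.14). Thinned to the smallest library, ifnphi3 in unstimulated Tg(ifih1_mut) pools was at 0.115 CPM, against 0.139.

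Counts of called genes moved: 159 between stimulated genotypes became 277 in DESeq2, 69 with only the groups compared and 70 to 177 with 1 library left out. For poly I:C in Tg(ifih1_mut) larvae, 183 became 307, 99, 277 with the set block, and 92 to 201. Between unstimulated genotypes, 1 became 2, 0 and 0 to 1, and for the difference 41 became 138 in DESeq2, 79 with the set block and 0 to 60. The cause was not tested. The limit of 3 counts was reached by ifnphi2 in 2, by ifnphi4 in 1 and by crfb2 in 0 of 12 libraries. How large a change such counts could show was not tested.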
